A study of Mus musculus with 4 samples.

Results

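The Thbs1 neighbourhood is the stretch of mouse chromosome 2 from 117 to 118 Mb on build mm9 in which peaks of the nuclear receptor NR6A1 are dense and which holds Thbs1 at about 117.94 to 117.95 Mb. Its members were chosen by position, as every peak whose midpoint lay in that window, and the window itself was selected on its number of peaks. There were 43 such peaks among the 21507 of replicate 1 and 28 among the 16160 of replicate 2, and they merged into 47 regions of the 28444 in either list. Chromatin immunoprecipitation followed by sequencing (ChIP-seq) had been done on 4 libraries of mesenchymal stem cells, the stromal precursors of bone, fat and cartilage. Those named NR6A1 (n = 2) came from cells infected with a retrovirus for NR6A1 carrying Flag and HA tags, and those named vector (n = 2) from cells infected with the empty retrovirus. All were C57BL/6 cells with floxed Dicer alleles (Dicer f/f, called Dicer WT), from an immortalized monoclonal line under puromycin, so 1 clone with a virally expressed protein stands for the cell type. The antibody was against HA in all of them. No vector values are given below, since they were not analysed here, and how much of a peak the antibody gives without tagged NR6A1 is therefore not shown. The labels do not say whether replicates came from separate cultures.

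NR6A1, also called germ cell nuclear factor, is an orphan nuclear receptor that binds direct repeats of the half-site AGGTCA with no spacer and is known in mouse as a repressor, for instance of Pou5f1 when embryonic stem cells differentiate. Thbs1 encodes thrombospondin-1, a secreted glycoprotein of the extracellular matrix that binds the receptors CD36 and CD47, inhibits the growth of blood vessels and activates latent TGF-beta. Fibroblasts and other stromal cells make it. Thbs1 is transcribed toward higher coordinates, so peaks on the lower-coordinate side are called upstream. Distances were taken from the approximate position above, which is known to about 10 kb, and not from an annotated start site. A ChIP-seq peak marks where fragments gathered and names no target gene.

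In the RefSeq table of build GRCm38.p6, used for gene names and their order, no protein-coding gene lies between Rasgrp1 and Thbs1. The 9 genes listed there are 7 long noncoding RNAs (Gm32020, Gm13982, Gm32137, Gm32210, Gm13985, 4930412B13Rik and Gm13986), the pseudogene Gm18846 and the small nuclear RNA gene Gm25308. Rasgrp1 encodes an activator of Ras, and Fsip1, the next protein-coding gene beyond Thbs1, a protein that binds the fibrous sheath of the sperm tail. Which of the peaks fall in which of these genes was not analysed here, since the peaks are on another build. Promoter sequences (RefSeq, GRCm38.p6, 250 bases before to 50 after a gene's start) were at hand for 7 of these 12 genes, and are not placed relative to the peaks. No promoter sequence of Thbs1 was among the 7, so the promoter of Thbs1 was not searched. The half-site AGGTCA, searched on both strands, was in 2 of the 7, or 28.6%, against 16.3% of all 32851 promoters. The longer form TCAAGGTCA, which contains the half-site, was in 0 of the 7, against 0.423% of all. The promoter of Gm13986 is shown because that gene is on the minus strand and 0 listed genes lie between its start and Thbs1, with Gm18846 and Gm25308 inside its own span. The 2 stretches that follow it are shown for their half-site, which is in capitals and reads TGACCT, the reverse complement. They begin 20 bases before it and end 20 bases after it, and the half-site itself begins 99 bases before the start of Gm32137 and 17 bases after that of Gm13985.
Gm13986 promoter, GRCm38.p6 chr2:118111153-118111452, minus strand: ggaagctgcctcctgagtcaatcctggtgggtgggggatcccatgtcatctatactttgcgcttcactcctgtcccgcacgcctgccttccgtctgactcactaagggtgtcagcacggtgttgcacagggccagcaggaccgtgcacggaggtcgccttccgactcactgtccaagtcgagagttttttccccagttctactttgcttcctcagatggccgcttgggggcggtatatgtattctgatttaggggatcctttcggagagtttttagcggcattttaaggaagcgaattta
Gm32137 stretch, GRCm38.p6 chr2:117439865-117439910, plus strand: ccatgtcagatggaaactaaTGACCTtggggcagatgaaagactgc
Gm13985 stretch, GRCm38.p6 chr2:117812760-117812805, minus strand: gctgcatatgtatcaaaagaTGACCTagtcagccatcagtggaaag

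Most NR6A1 peaks of this window lay far upstream of Thbs1, and a small tight group lay at the gene. The window reaches 940 kb upstream of Thbs1 and 50 kb beyond it, so it holds more upstream than downstream sequence. Between 660 and 140 kb upstream lay 37 of the 43 replicate 1 peaks and 25 of the 28 replicate 2 peaks, and 21 of the 23 regions found in both lists. These limits were set after the positions had been seen. Within 100 kb of Thbs1 there were 5 peaks of replicate 1 and 3 of replicate 2, of which 4 and 3 lay within 10 kb. At the gene, 3 peaks of replicate 1 followed each other within 3.42 kb, and 3 of replicate 2 within 5.43 kb. Peaks far upstream and peaks near Thbs1 were separated by a gap of 142 kb in replicate 1 and of 151 kb in replicate 2 that held no peak of the list. In replicate 1 a wider gap, of 212 kb, set a single weak peak 865 kb upstream apart from the rest. Neighbouring peaks lay a median of 10.4 kb apart in replicate 1 and 14.7 kb apart in replicate 2.

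**Figure D1:**
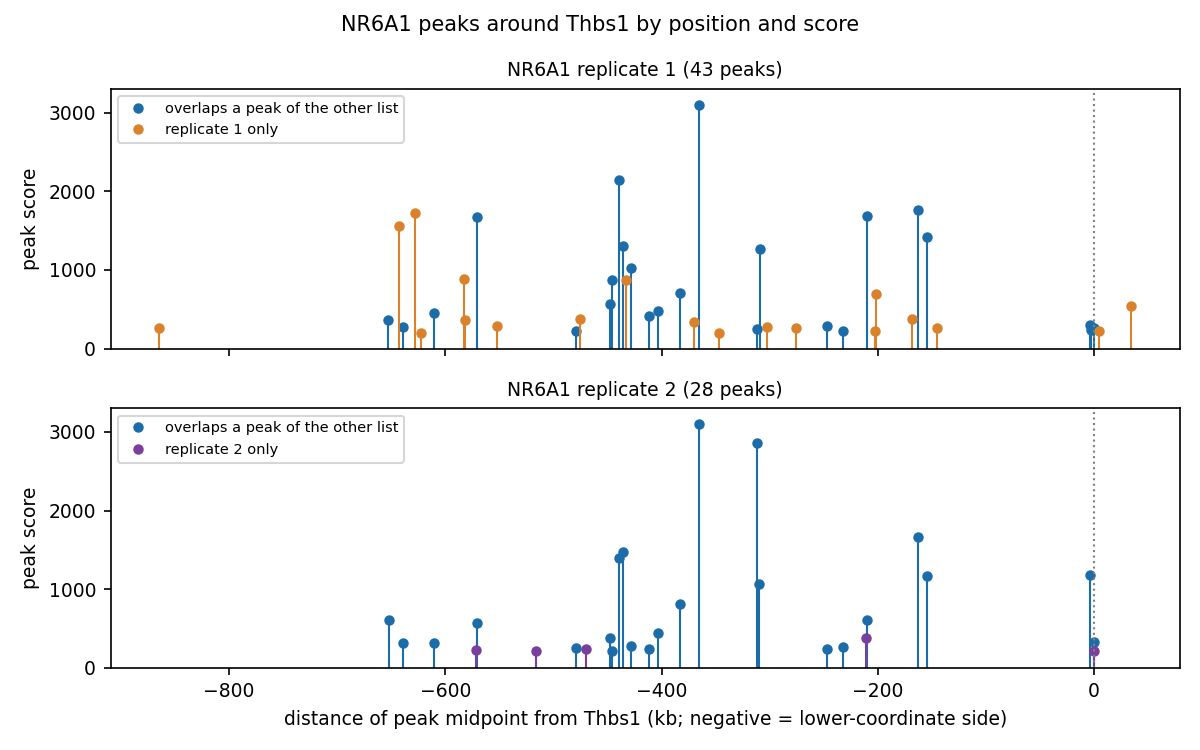
Each vertical line is an NR6A1 peak, drawn at the distance of its midpoint from Thbs1 in kb (negative values upstream) and as high as its deposited score, with replicate 1 above and replicate 2 below. Most peaks stand between 660 and 140 kb upstream in both lists, and the single peak at 3100 in each list is at the same place, 365 kb upstream.

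In steps of 100 kb, regions in both lists were most frequent from 440 to 340 kb upstream, where there were 7, beside 3 of replicate 1 only and 0 of replicate 2 only. The step from 240 to 140 kb upstream held 4 regions in both, and the steps from 640 to 540, 540 to 440 and 340 to 240 kb held 3 each. From 140 to 40 kb upstream and from 840 to 740 kb upstream there was no region of either list.

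**Figure D2:**
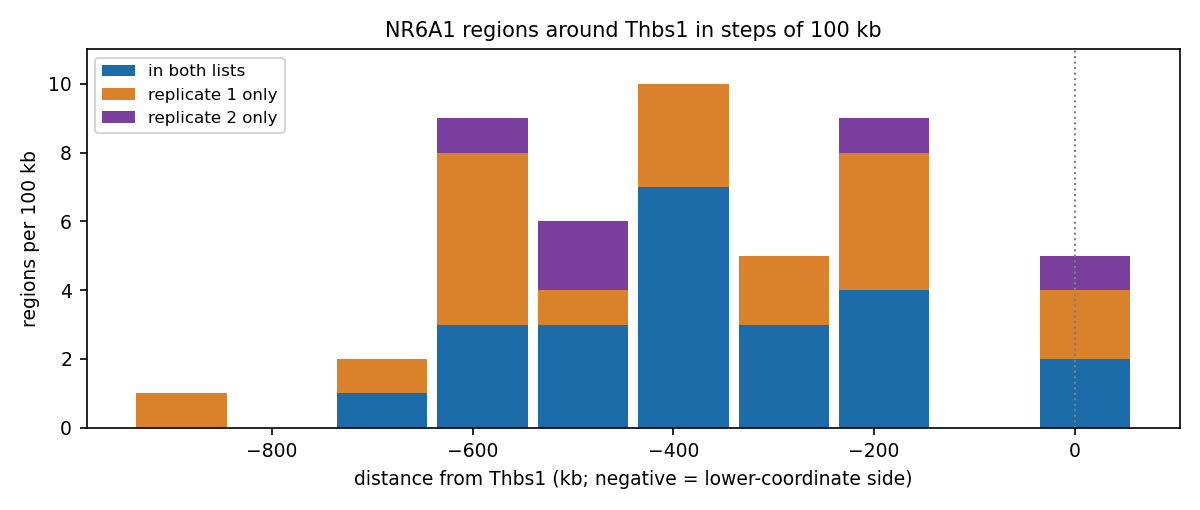
Bars give the number of NR6A1 regions in each 100 kb along the window by distance from Thbs1 in kb, stacked by whether the region was in both lists, in replicate 1 only or in replicate 2 only. The tallest bar, from 440 to 340 kb upstream, holds 7 regions in both lists, and the bar at Thbs1 holds 2.

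Close to Thbs1 both lists had peaks at the same 2 places, with unequal scores. The score is the authors' value for each peak from the peak caller MACS. It starts just above 200 in both lists, and it depends on the depth and background of its own library. About 3 kb upstream replicate 1 had a pair of narrow peaks, at 117936324 to 117936699 with a score of 296.16 and at 117936704 to 117937200 with a score of 238.86. Replicate 2 had a single peak over both, at 117935789 to 117937605, which was 1817 bp wide and scored 1174.60. The narrow pair of replicate 1 ranked within the upper 71.0% and 86.3% of that list by score, whereas the replicate 2 peak, the widest of its list in the window, was in the upper 10.8%. At the approximate start of Thbs1 itself, both lists had a low peak with nearly the same borders. Its score was 263.61 in replicate 1, at 117939594 to 117940264, and 334.05 in replicate 2, at 117939596 to 117940190. The remaining peaks within 100 kb were found in 1 list. Replicate 2 alone had one at 117941855 to 117942397 with a score of 209.39, near the lowest of its list. Replicate 1 alone had one about 5 kb beyond Thbs1 with a score of 226.33 and one 34 kb beyond it with 544.68. The borders of these peaks cannot be set against the start site of Thbs1 more finely than the 10 kb above.

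The highest peak of the window was the same in both replicates. It lay 365 kb upstream, at 117574318 to 117575428 in replicate 1 and at 117574415 to 117575311 in replicate 2, with midpoints 10.0 bp apart. Its score was exactly 3100 in each list. In replicate 1, 239 peaks have that value, and in replicate 2, 187 peaks do, so the order among peaks at or above 3100 was not read as strength.

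The densest group of regions found in both lists lay from 448 to 428 kb upstream, where 5 followed each other within 19.4 kb with gaps of at most 10 kb. The farthest upstream, at 117492047 to 117492746, scored 571.32 in replicate 1 and 385.53 in replicate 2. The next, at 117493571 to 117494363, scored 872.01 and 217.13 in replicates 1 and 2. The region at 117500466 to 117501423 was the second highest of the window in replicate 1, with 2137.48, and scored 1399.84 in replicate 2. At 117504104 to 117504881 the scores were 1298.25 in replicate 1 and 1473.95 in replicate 2, so here replicate 2 was the higher. The last, at 117511447 to 117512198, had 1024.06 in replicate 1 and 277.00 in replicate 2. A further replicate 1 peak of this group, 433 kb upstream with a score of 873.87, overlapped no replicate 2 peak, although one lay 2.36 kb away.

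Between the highest peak and the gap before Thbs1 there were 7 regions in both lists. At 312 kb upstream, at 117627607 to 117629130, the replicates differed most, with a score of 248.82 in replicate 1 and 2853.22 in replicate 2. That is an 11.5-fold difference, and the peak was 482 bp wide in replicate 1 and 1524 bp wide in replicate 2. Its neighbour 309 kb upstream, at 117630270 to 117630927, had similar scores of 1260.24 and 1067.44 in replicates 1 and 2. Weak regions at 247 and 232 kb upstream had scores of 286.61 and 227.29 in replicate 1, and of 236.57 and 262.81 in replicate 2. At 210 kb upstream, at 117729381 to 117730024, the score was 1680.97 in replicate 1 and 603.88 in replicate 2. The last shared regions before the gap, 163 and 155 kb upstream, were high in both lists. The first, at 117776432 to 117777562, scored 1767.79 in replicate 1 and 1664.31 in replicate 2, and the second, at 117784475 to 117785742, scored 1415.06 in replicate 1 and 1165.29 in replicate 2.

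Farther upstream than the group of 5 there were 5 more regions in both lists. The one at 571 kb upstream, at 117368902 to 117369686, scored 1673.47 in replicate 1 and 567.27 in replicate 2. Those at 652, 639, 611 and 479 kb upstream had scores between 222.82 and 450.56 in replicate 1 and between 255.76 and 610.85 in replicate 2. Between the group of 5 and the highest peak there were 3, at 412, 404 and 383 kb upstream. They scored 414.30, 480.52 and 705.11 in replicate 1, and 233.25, 439.41 and 816.46 in replicate 2.

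Overlap between the lists was counted with at least 1 bp in common. Of the 43 replicate 1 peaks of the window, 24 overlapped a replicate 2 peak, or 55.8% (95% Wilson interval 41.1 to 69.6%), beside 42.7% of the whole list. Of the 28 replicate 2 peaks, 23 overlapped a replicate 1 peak, or 82.1% (64.4 to 92.1%), beside 56.0% of the whole list. Of the 47 regions, 23 or 48.9% were in both lists (35.3 to 62.8%), beside 31.7% of all regions. With partners defined instead by midpoints within 100 bp, the share in replicate 1 was 37.2%, beside 34.9% of its whole list, and in replicate 2 57.1%, beside 46.4%. The intervals cover counting error over peaks only. Peaks of 1 library are not replicates and the window was chosen with these lists known, so no test of the window against the lists is given. Dense windows had higher shares in general. Over the 98 windows of 1 Mb with 20 or more peaks in each list, the median share with a partner was 55.0% in replicate 1 and 63.6% in replicate 2. Among those windows the Thbs1 neighbourhood was 48th in replicate 1 and 4th in replicate 2.

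Of the 19 replicate 1 peaks without a partner, 13 scored below 400, or 68.4% (46.0 to 84.6%), beside 56.2% of such peaks in the whole list. All 5 replicate 2 peaks without a partner did, at 231.69, 211.34, 239.00, 382.45 and 209.39, beside 68.0% of such peaks in the whole list. The other 6 of replicate 1 scored 1720.89, 1557.79, 888.25, 873.87, 695.13 and 544.68. The strongest pair of these lay at 628 and 643 kb upstream, at 117311900 to 117312634 and 117296998 to 117297691, with the nearest replicate 2 peak 11.0 kb and 3.92 kb away. Among replicate 1 peaks of the window with a score of 1000 or more, 9 of 11 had a partner, and among those of replicate 2, 8 of 8. In the whole lists 62.2% and 87.6% of such peaks did, in replicates 1 and 2.

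Scores of the window had medians near those of the whole lists and higher upper quartiles. The median was 379 in replicate 1 (quartiles 264 and 956), beside 417 for its whole list (279 and 741), and 384 in replicate 2 (252 and 1092), beside 394 for its whole list (270 and 680). A score of 1000 or more was reached by 11 of 43 peaks in replicate 1, or 25.6% (14.9 to 40.2%), beside 15.9% of the whole list. In replicate 2 it was reached by 8 of 28, or 28.6% (15.3 to 47.1%), beside 14.0%. Neither interval is a test against the whole list, since peaks of 1 library are not replicates. Over the 98 windows with 20 or more peaks in each list, the median share was 19.1% in replicate 1 and 15.9% in replicate 2. Among those windows the Thbs1 neighbourhood was 23rd in replicate 1 and 7th in replicate 2. In replicate 1 all 11 peaks with a score of 1000 or more lay between 660 and 140 kb upstream. In replicate 2, 7 of the 8 did, and the eighth was the wide peak about 3 kb upstream of the approximate position of Thbs1. Median widths were 517 bp in replicate 1 and 597 bp in replicate 2, beside 538 and 613 bp in the whole lists.

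**Figure D3:**
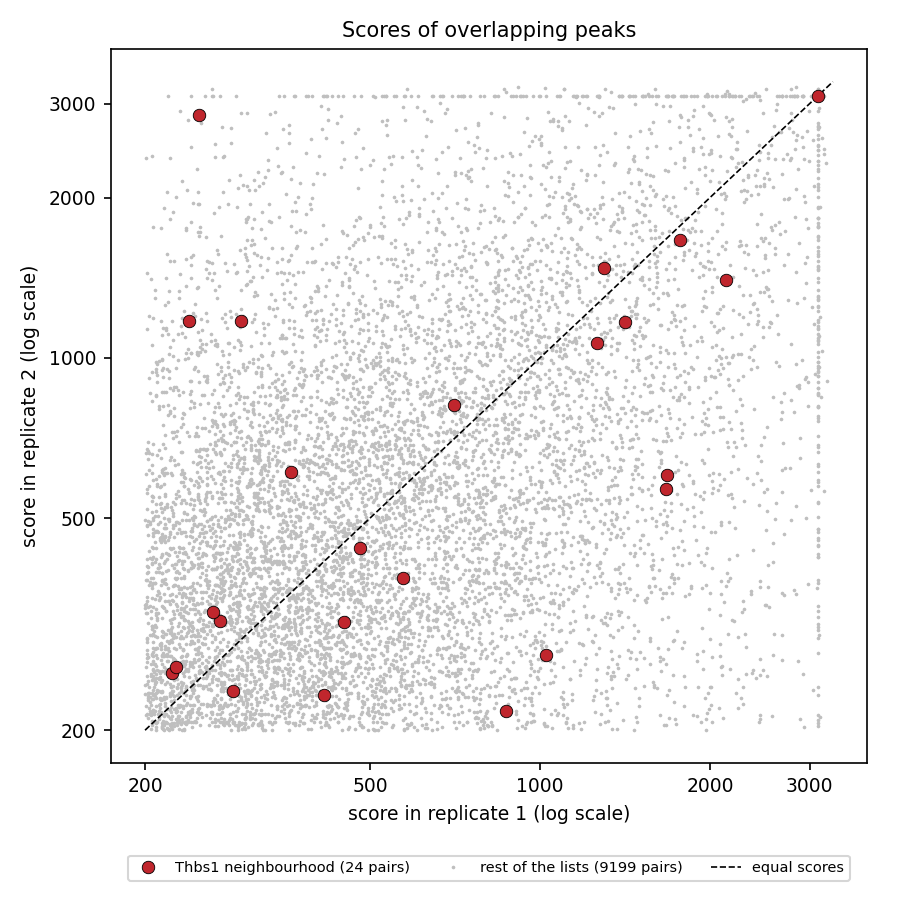
Each point is a pair of overlapping peaks, with its score in replicate 1 on the x axis and in replicate 2 on the y axis, both on log scales, and the dashed line marks equal scores. The 24 pairs of the Thbs1 neighbourhood (red) spread on both sides of the line among the 9199 pairs of the rest of the lists (grey), and the point at the upper left is the region 312 kb upstream.

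The scores of partners were compared over 24 pairs, in which the wide replicate 2 peak near Thbs1 counts with each of the narrow replicate 1 peaks it overlaps. The log2 ratio of replicate 1 over replicate 2 had a median of 0.11 (quartiles -0.22 and 0.58) and ranged from -3.52 to 2.01, beside a median of 0.00 (-0.67 and 0.71) over the 9223 pairs of the whole lists. In 17 pairs the scores were within 2-fold of each other, or 70.8%, beside 65.4%. Replicate 1 was over 2-fold higher in 4 pairs, and replicate 2 in 3. Of those 3, the region 312 kb upstream gave 1. The region about 3 kb upstream of the approximate position of Thbs1 gave the others. In all 3 pairs within 100 kb of Thbs1 the score was higher in replicate 2. Spearman's rho between the scores was 0.42 across the 24 pairs and 0.38 across the 9223 pairs. These points come from the same 2 libraries and share their depth, so the values are descriptions. Midpoints of partners lay a median of 66.8 bp apart, beside 37.5 bp in the whole lists.

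Peaks of the window also lay close to each other. A neighbouring midpoint no farther than 10 kb was found for 32 of 43 peaks in replicate 1, or 74.4% (59.8 to 85.1%), beside 47.2% of the whole list. In replicate 2 it was found for 20 of 28, or 71.4% (52.9 to 84.7%), beside 42.9%. This measure rises with the number of peaks, which selected the window. In the 98 dense windows its median was 58.3% in replicate 1 and 59.6% in replicate 2. By this share the Thbs1 neighbourhood was 11th of them in replicate 1, tied with 1 other, and 14th in replicate 2.

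**Figure D4:**
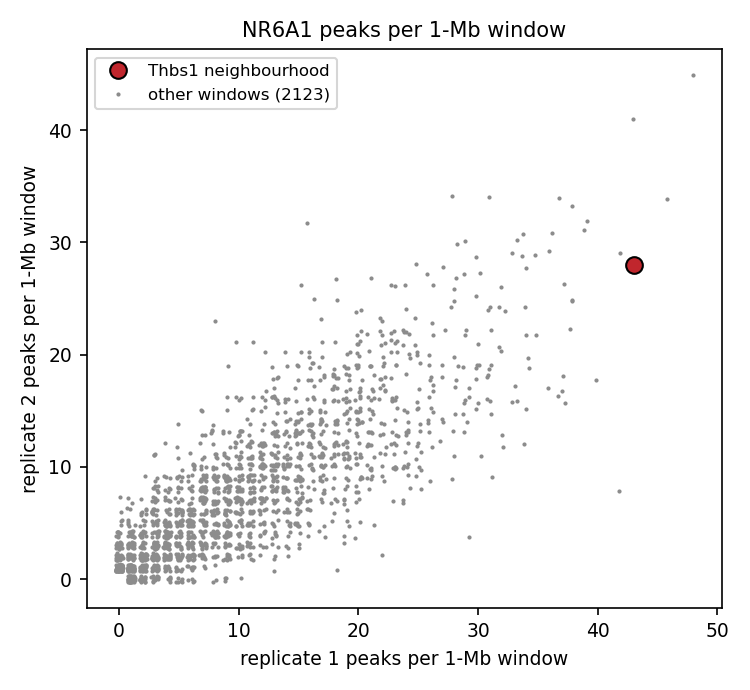
Each point is a 1-Mb window of the genome with a peak in either list, with its number of replicate 1 peaks on the x axis and of replicate 2 peaks on the y axis, and grey points were shifted slightly at random so that they can be told apart. The Thbs1 neighbourhood (red, 43 and 28 peaks) stands among the densest of the 2124 windows.

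By number of peaks the window was 3rd in replicate 1, tied with 1 other, and 22nd in replicate 2, tied with 3 others, over 2124 windows with a median of 8 and 6 peaks in replicates 1 and 2. These counts chose the window. The first peak inside its lower limit was 75.5 kb from it in replicate 1, with a score of 257.35, and 288 kb from it in replicate 2, with a score of 610.85. The first outside that limit were 3.84 and 22.3 kb from it, with scores of 202.26 and 248.54 in replicates 1 and 2. At the upper limit, beyond Thbs1, the first peak inside was 15.7 kb from the limit in replicate 1, with 544.68, and 57.9 kb from it in replicate 2, with 209.39. The first outside were 111 and 162 kb from it, with scores of 216.74 and 300.28 in replicates 1 and 2. On the far side of Thbs1, within 200 kb, there were 4 replicate 1 peaks and 0 of replicate 2, none of them in both lists. The first replicate 2 peak outside the upper limit lay 212 kb beyond Thbs1, just past that distance, and overlapped a replicate 1 peak.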

How the data were processed

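The authors deposited a peak list for either NR6A1 replicate, so calling was done sample by sample. The submitters' processing notes name Bowtie 0.12.7, MACS and mm9, without roles. The control library, MACS version and threshold are not given in the sources used here. Every deposited peak carries a score, read here from its values as MACS's transformed p-value, higher for smaller p-values. Read depth is unknown from the lists. Positions count the first base as 1.

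Midpoints, distances, partners (overlap of at least 1 bp) and merged regions were computed with Python 3.11.15, numpy 2.4.6, pandas 2.3.3 and scipy 1.17.1. Partner counts were checked against bedtools 2.31.1 and tested on simulated data. No test was run, because there is 1 list per replicate. The window and the items named (regions in both lists, the 5 highest peaks per list, peaks within 100 kb of Thbs1 and those nearest to the window limits) were chosen with earlier results of these data known. With no mm9 annotation or sequence at hand, peaks were not assigned to genes or searched for motifs, and a list of thrombospondin-related genes was not used. Alternatives were tried for the partner definition, the window, the distance limits and the lists.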

Additional observations from a re-analysis of the deposited data

How the results depend on the processing

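Across the alternatives, 41 values were recomputed. Of them, 25 changed by less than a set limit and 16 by more. The limit was the Wilson interval for shares and 1.5-fold for counts and the ratio. For median scores it was the SD of 3.61 between the replicates' medians. Values below are for replicates 1 and 2 in that order. With the upper 50% of each list by score, 20 and 13 peaks remained in the window and 1 and 1 within 100 kb of Thbs1. That setting shortens the lists by design, with cuts at the whole-list medians of 417 and 394. The peaks within 100 kb that it removed scored between 226.33 and 296.16 in replicate 1. In replicate 2 they scored 209.39 and 334.05. Within 200 kb of Thbs1 there were 11 and 5 peaks. With partners defined by midpoints within 100 bp, 37.2% and 57.1% of window peaks had one, beside 34.9% and 46.4% of the whole lists, so the excess over the whole list was smaller than with overlap in both replicates. With equal list sizes 64.3% of replicate 2 peaks had a partner, beside 46.8% of its list. Among peaks with a partner the median score was 526 and 567, and in a window of the same width centred on Thbs1 it was 414 in replicate 1. A neighbour lay within 5 kb for 44.2% and 46.4% of peaks and within 50 kb for 97.7% and 100%. What caused these changes was not tested. No paired analysis was possible because values of the vector libraries were not analysed here. With either replicate left out, values per list are as given and no partner can be counted. The lists hold no reads per peak, so absence from a list and a signal slightly below the minimum score look alike.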
